A study of Mus musculus with 6 samples.

Results

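*Evx1*, its antisense neighbour *Evx1as* and the 8 protein-coding genes *Hibadh*, *Tax1bp1*, *Jazf1*, *Skap2*, *Snx10*, *Cbx3*, *Hnrnpa2b1* and *Nfe2l3* were examined gene by gene for differences between the 2 edited lines. These 10 genes were chosen by symbol from the 15266 genes of the mRNA-seq table, all 10 were listed, and all 10 were among the 12891 genes that passed the filter for low counts. *Evx1as* is listed as 5730457N03Rik. The *Evx1* and *Evx1as* genes overlap the 2.6 kb deletion, and the other 8 lie on the same stretch of mouse chromosome 6, on both sides of the HoxA cluster and *Evx1*.

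The libraries came from day 4 embryoid bodies (D4 EBs), which are aggregates of differentiating mouse embryonic stem cells (mESCs) grown in suspension in serum without LIF. Both lines derive from W9.5 mESCs and were edited with CRISPR-Cas9. EVX1-Δfs is clone 14, which carries small frameshift deletions in the homeodomain-coding part of *Evx1* on both alleles, and Del#3 carries a deletion of about 2.6 kb (Evx1/Evx1asΔ2.6kb). Each line was sequenced in 3 replicates, and the lines of a replicate were differentiated side by side on the same day. Both groups therefore lack functional EVX1, and the comparison asks what the loss of the shared locus adds to it. Each line is 1 edited line, so that differences between clones cannot be told apart from the effect of the deletion, and no WT library was among the samples analysed here.

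*Evx1* encodes a homeodomain transcription factor that is expressed in the primitive streak and posterior mesoderm of the gastrulating embryo. *Evx1as* is a long noncoding RNA transcribed from the opposite strand. Antisense or divergent noncoding RNAs, and the DNA they are transcribed from, can act *in cis* on neighbouring genes, and the HoxA cluster is a well-known example of a locus controlled over long distances. A *cis* effect of the deletion would appear as a changed level of a flanking gene.

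The guides and the predicted junction define what was removed. Each of the 3 guides matched 1 site next to an NGG PAM in NCBIM37, the assembly known as mm9, and the PAM is in capitals. Del#3 was made with guide 1 and guide 2, which match the plus strand at chr6:52265302-52265321 and chr6:52262639-52262658, and EVX1-Δfs with a single guide at chr6:52265847-52265866 within coding exon 2 of *Evx1*.
Del#3 guide 1: cacacctggtactggcatacTGG
Del#3 guide 2: tcattagaacacgccgtttgTGG
EVX1-Δfs guide: ccagatgcgccgataccgcaCGG

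With cuts placed 3 bases from the PAM, the predicted deletion in Del#3 spans 2663 bp at chr6:52262656-52265318. The joined sequence expected on the plus strand has 30 bases from before the first cut in lower case and 30 bases from after the second in capitals.
Predicted Del#3 junction: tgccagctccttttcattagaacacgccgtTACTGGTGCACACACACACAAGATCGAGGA

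The cut in EVX1-Δfs is predicted 545 bases beyond the end of the deletion, so the 2 edits do not overlap. The predicted deletion holds exon 1 of *Evx1* (774 bases), with 427 of the 1248 annotated coding bases (34.2%), and leaves exons 2 and 3 in place. For *Evx1as*, it removes exons 1 to 3 of the 4-exon transcript and leaves the last exon of 2509 bases. Of all annotated exon bases, 73.1% of *Evx1* and 85.4% of *Evx1as* thus lie outside the deletion and could still be counted if they were transcribed.

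**Figure D1:**
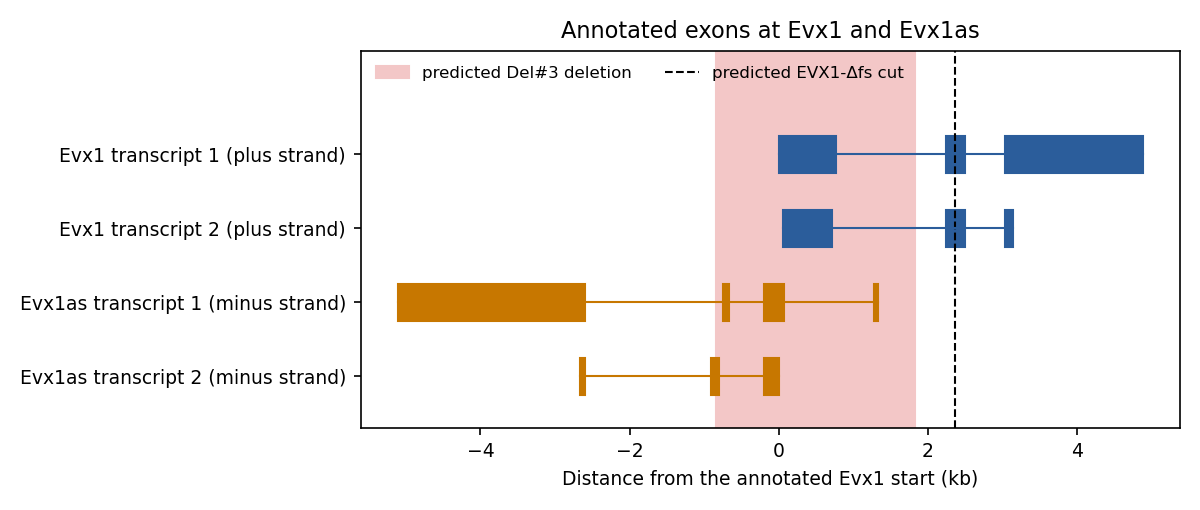
Annotated transcripts at *Evx1* (blue, plus strand) and *Evx1as* (orange, minus strand), with exons as boxes and distance from the *Evx1* start in kb on the x axis. The shaded predicted deletion runs from -0.836 to 1.826 kb and covers the first exons of both genes, while the predicted EVX1-Δfs cut (dashed line, 2.371 kb) lies beyond it.

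The deletion also removes the stretch before the *Evx1* start, which overlaps the annotated 5′ part of *Evx1as*. Its 250 bases at chr6:52263242-52263491 of NCBIM37, plus strand, are shown because 194 of them are also annotated exon of *Evx1as* on the other strand, so that the deletion of this stretch removes sequence of both genes.
*Evx1* upstream 250 bases: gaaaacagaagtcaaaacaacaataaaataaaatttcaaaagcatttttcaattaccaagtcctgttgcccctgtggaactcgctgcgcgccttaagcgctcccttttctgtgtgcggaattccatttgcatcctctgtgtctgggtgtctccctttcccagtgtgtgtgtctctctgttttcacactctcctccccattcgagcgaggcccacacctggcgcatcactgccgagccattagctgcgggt

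This stretch holds 10 CG dinucleotides and has a GC content of 49.6%. Of the 250-base stretches before 27025 starts in RefSeq (GRCm38.p6), 38.2% hold at least as many CG dinucleotides, with a median of 6. The letters TATAAA (the TATA box), CCAAT (the CCAAT box) and CTTTGNT (a TCF/LEF core, the factors of WNT signalling) were searched on both strands and were not found in it. They occur in 13.0%, 34.5% and 16.1% of the RefSeq stretches, so their absence is the common case and says only that these letters are not in this window.

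The deposited values are normalized counts, that is reads divided by a size factor for each library. The reads recovered from them numbered 9024579 to 15699124 per library. Over all tested genes, 60.5% of the sum of squares (log2 scale) lay between replicate numbers and 13.7% between lines. A split by 3 unrelated numbers would also hold a share, and a larger one than a split by 2 lines. The 60.5% is therefore not the size of a replicate effect alone. All marker genes searched were listed: those of primitive streak and mesoderm summed to between 7208 and 9124 normalized counts in EVX1-Δfs and between 5881 and 9177 in Del#3, those of definitive endoderm to 3243–4295 and 2627–3984, and those of pluripotent cells to 7650–8459 and 5498–9214. Markers of primitive or visceral endoderm summed to 1213–1771 and 1222–1491, and those of neurectoderm to 9–14 and 9–16. *Afp* and the 3 neurectoderm markers were too low to be tested, and none of the other 18 was called. Of these 18, 2 had all Del#3 libraries below all EVX1-Δfs libraries, as did 1.8% of all genes tested, and were named for that after their values were seen: *Sox17* at 714.8 to 800.5 in EVX1-Δfs and 518.0 to 647.2 in Del#3, and *Zfp42* at 341.0 to 457.2 and 181.1 to 287.7. For the other 16 the libraries overlapped. These are bulk samples, in which fewer cells of a type and less RNA per cell cannot be told apart.

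Both genes of the edited locus fell in Del#3. *Evx1* was at 2655, 3671 and 3051 normalized counts in EVX1-Δfs replicates 1 to 3 and at 38.25, 32.51 and 33.11 in Del#3. The lines did not overlap, and the gap between the lines was far wider than the spread within either. The means were 3125 ± 512 and 34.6 ± 3.16 (SD, n = 3). The log2 fold change on the scale of log2(normalized count + 1), Del#3 against EVX1-Δfs throughout, was -6.45 (standard error 0.25, 95% confidence interval -6.997 to -5.896, limma with Benjamini-Hochberg adjustment, adjusted p = 1.05e-06).

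*Evx1as* was at 580.1, 689.1 and 674.6 normalized counts in EVX1-Δfs and at 16.74, 25.55 and 32.04 in Del#3. Here too the groups did not overlap, with means of 648 ± 59.2 and 24.8 ± 7.68 (SD, n = 3). Its log2 fold change was -4.70 (standard error 0.32, 95% confidence interval -5.40 to -3.99, limma, adjusted p = 0.000155). In the EVX1-Δfs libraries, both genes were lowest in replicate 1 and highest in replicate 2. In Del#3 they were not ordered alike, as *Evx1* was highest in replicate 1 and *Evx1as* in replicate 3.

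*Evx1* and *Evx1as* were the 2 genes called lower among the 12891 tested (0.0155%), and no gene was called higher (0%). The unadjusted p-value was under 0.05 for 133 genes. edgeR and DESeq2 on the recovered reads also called both, with 2 genes called in all by edgeR and 3 by DESeq2. With the replicate block, limma and edgeR called 3 genes each and DESeq2 9. All 3 Del#3 libraries lay below all EVX1-Δfs libraries for 232 genes (1.8%) and above them for 220 (1.71%), and of the 10 genes examined here this held for *Evx1* and *Evx1as* alone. For these genes, 99.8% and 98.7% of the sum of squares lay between the lines.

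**Figure D2:**
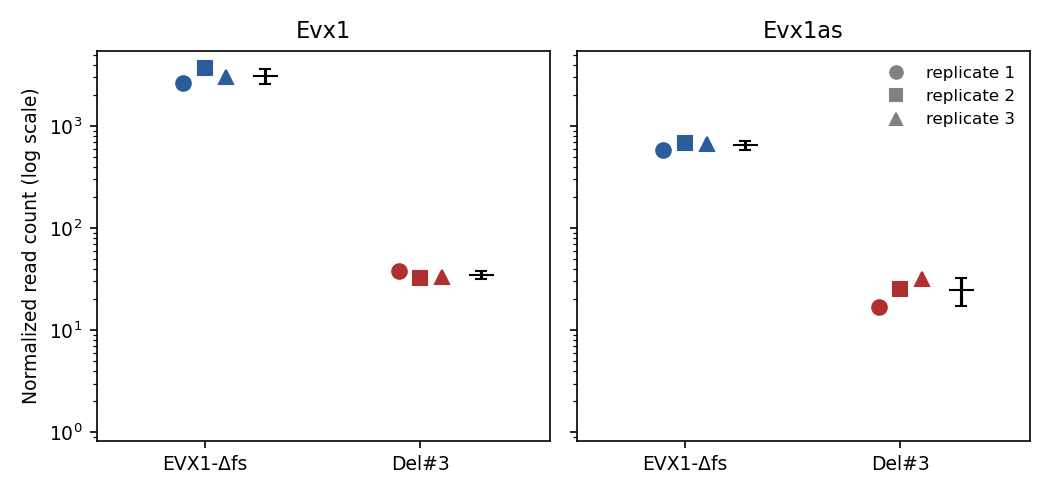
Normalized read counts (log scale) of *Evx1* and *Evx1as* in each library, with EVX1-Δfs in blue, Del#3 in red, and the mean with its SD as a black bar beside the points. The 3 EVX1-Δfs libraries lie between 2655 and 3671 for *Evx1* and between 580.1 and 689.1 for *Evx1as*, and the Del#3 libraries reach at most 38.25 and 32.04.

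A few reads remained on both genes in Del#3. They numbered 48, 28 and 31 on *Evx1*, against 4023, 3132 and 2582 in EVX1-Δfs, and 21, 22 and 30 on *Evx1as*, against 879, 588 and 571. On the normalized scale, 1.11% ± 0.101 (SD, n = 3) of the mean *Evx1* level of EVX1-Δfs and 3.82% ± 1.18 (SD, n = 3) of that of *Evx1as* remained. The losses of 98.9% and 96.2% exceeded the shares of annotated exon that the deletion removes, 26.9% for *Evx1* and 14.6% for *Evx1as*, so the exons left in place gave few reads as well. The files hold 1 total per gene, and on which exon the remaining reads lie was not tested.

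The 2 genes did not fall by the same factor. Reads on *Evx1as* were 21.8%, 18.8% and 22.1% of those on *Evx1* in EVX1-Δfs, and 43.8%, 78.6% and 96.8% in Del#3. The ratio does not depend on the scaling between libraries, and every Del#3 library lay above every EVX1-Δfs library, with means of 20.9% ± 1.86 and 73.0% ± 26.9 (SD, n = 3). This is a 3.32-fold higher ratio on the mean of log2 ratios (difference 1.73, p = 0.1 by a two-sided exact permutation test, which cannot give a smaller p with 3 libraries per line). Within replicates 1 to 3, the difference was 1.00, 2.06 and 2.13 on the log2 scale, so the ratio was higher in each pair but varied in Del#3.

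The Del#3 ratios rest on few reads, 50 to 69 per library over both genes. Of the reads on either gene, *Evx1as* held 30.4% in Del#3 replicate 1 (95% exact binomial confidence interval 19.9% to 42.7%), 44.0% in replicate 2 (29.99% to 58.75%) and 49.2% in replicate 3 (36.1% to 62.3%). In EVX1-Δfs it held 15.8% to 18.1%, and the highest upper bound there was 19.5%. No interval of a Del#3 library reached down to those of EVX1-Δfs, although replicate 1 came close. The intervals cover counting error only. The annotated exons of the genes overlap by 73 bases on opposite strands, where the assignment of reads was not tested.

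Levels were compared between genes as reads per kb of annotated exon and per 1000000 reads on listed genes. In EVX1-Δfs, *Evx1* came 2nd of the 10 genes with 101.2 ± 17.0 (SD, n = 3), below *Hnrnpa2b1* at 184 ± 36.9, and *Evx1as* came 5th with 19.99 ± 1.53. *Hibadh* at 30.3 ± 6.41 and *Cbx3* at 20.8 ± 10.5 stood between them, and their libraries overlapped each other and, for *Cbx3*, those of *Evx1as*. *Tax1bp1* (11.7 ± 4.50), *Skap2* (9.11 ± 1.20) and *Snx10* (6.46 ± 1.82) followed as neighbours whose libraries overlap, and *Jazf1* (0.749 ± 0.181) and *Nfe2l3* (0.695 ± 0.281) were lowest and overlapped as well. In Del#3, *Evx1* was 7th at 1.16 ± 0.188 and *Evx1as* 8th at 0.778 ± 0.224, by their means just above the 2 lowest genes. The Del#3 libraries of *Evx1as* overlapped those of *Evx1*, *Nfe2l3* and *Jazf1*. In Del#3 replicate 1, *Evx1as* (0.5691) lay below both *Nfe2l3* (0.6325) and *Jazf1* (0.677). The other 8 kept their order except that the lowest pair changed places.

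None of the 8 flanking genes was called in either direction by limma, and none had an unadjusted p-value under 0.05. edgeR's quasi-likelihood test and DESeq2's Wald test also called 0 of the 8. For every one of them, libraries of the lines overlapped. Their median log2 fold change was 0.01, with 4 lower and 4 higher, beside 0.00 over all genes tested, and their median absolute log2 fold change was 0.23 beside 0.16. The 95% confidence interval stayed inside a 2-fold rise or fall for 4 of the 8, *Hibadh*, *Skap2*, *Snx10* and *Hnrnpa2b1*, beside 61.1% of all genes. The intervals of *Tax1bp1*, *Jazf1*, *Cbx3* and *Nfe2l3* extended beyond 2-fold, and with the replicate block that of *Cbx3* lay inside it (-0.16 to 0.58) while those of the other 3 did not.

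**Figure D3:**
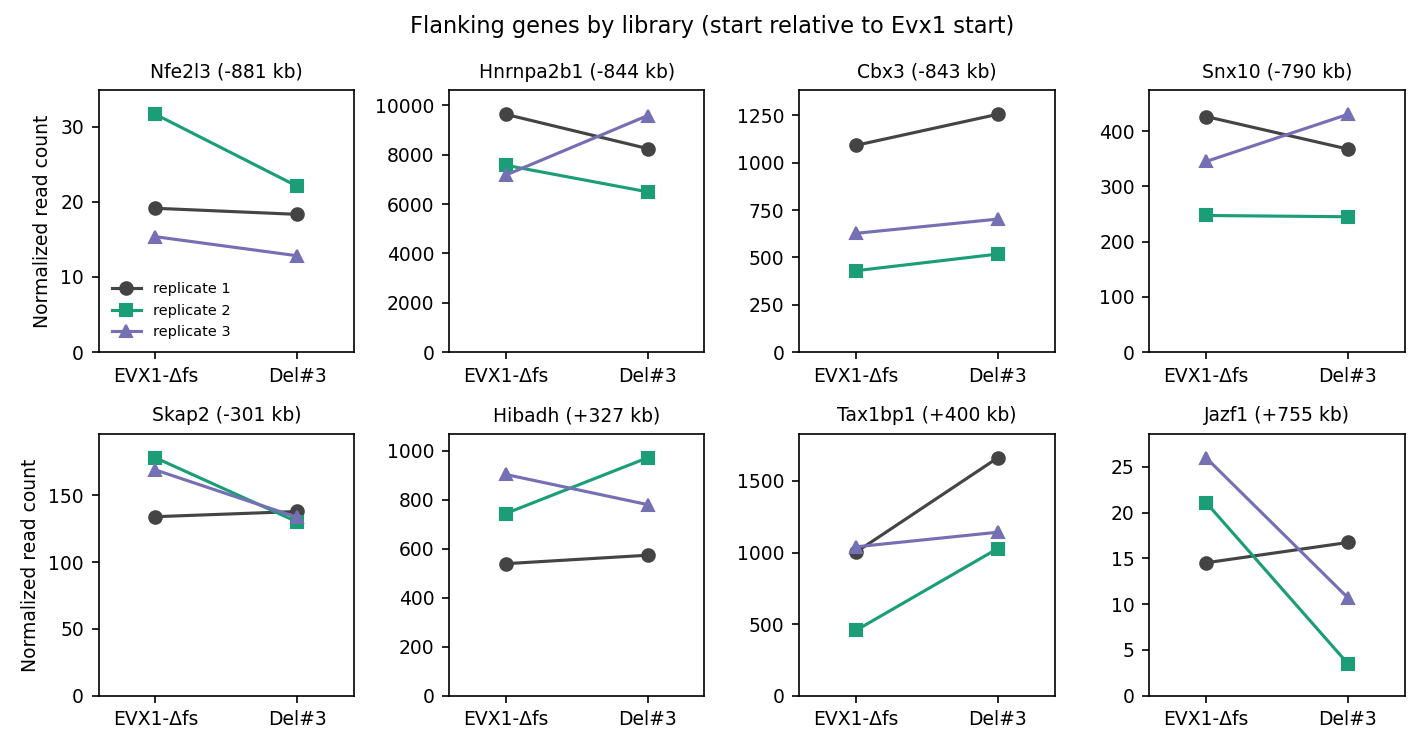
Normalized read counts of the 8 flanking genes in each library, in the order of their start relative to the *Evx1* start (kb in each title), with lines joining the libraries of the same replicate number. The lines cross or run level for most genes, and the EVX1-Δfs and Del#3 points overlap in every panel.

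On the far side of *Evx1* from the HoxA cluster, the nearest flanking gene is *Hibadh* (chr6:52496222-52590383, minus strand, 230.9 kb from the deletion), which encodes a mitochondrial dehydrogenase of valine breakdown. It was at 539.2, 744.2 and 903.8 normalized counts in EVX1-Δfs and at 573.8, 971.9 and 780.7 in Del#3. Replicate 1 was lowest in both lines, and no replicate set the lines apart. The log2 fold change was 0.09 (standard error 0.29, 95% confidence interval -0.54 to 0.72, limma, adjusted p = 1.0), which bounds the fold between 0.686 and 1.65.

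Next to it, *Tax1bp1* (chr6:52663723-52716774, plus strand, 398.4 kb away) encodes an autophagy receptor that also restrains NF-κB signalling. It was at 1002, 455.9 and 1040 normalized counts in EVX1-Δfs and at 1662, 1028 and 1142 in Del#3. Del#3 exceeded EVX1-Δfs in each replicate, by 0.73, 1.17 and 0.13 on the log2 scale, but EVX1-Δfs replicate 3 lay above Del#3 replicate 2 and the groups overlapped. Its log2 fold change was 0.68 (standard error 0.34, 95% confidence interval -0.08 to 1.44, unadjusted p = 0.0746 and adjusted p = 1.0 by limma), with bounds of 0.946 and 2.71 on the fold.

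Of the 8 flanking genes, *Tax1bp1* had the lowest p-value, which ranked 246th of 12891. In limma with the replicate block, its interval narrowed to between 0.19 and 1.17, with an unadjusted p of 0.0127 and an adjusted p of 0.852, so the call did not change. In that fit 1 of the 8 flanking genes had an unadjusted p under 0.05, beside 594 of the 12889 tested genes other than *Evx1* and *Evx1as*. The value of *Tax1bp1* rested most on EVX1-Δfs replicate 2, the lowest library, without which the log2 fold change was 0.29. Without both replicate 3 libraries and with the block, an alternative added after the data were seen, it was 0.95 with an adjusted p of 0.0227 by limma, but 307 genes were called in that fit of 4 libraries.

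*Jazf1* (chr6:52718791-53018625, minus strand, 453.5 kb away), which encodes a zinc finger protein of the nucleus, had few reads. It had 22, 18 and 22 reads in EVX1-Δfs and 21, 3 and 10 in Del#3, which are 14.52, 21.10 and 25.99 and 16.74, 3.48 and 10.68 normalized counts. Del#3 was lower in replicates 2 and 3, with log2 differences of -2.301 and -1.209, and higher in replicate 1, with 0.19. The log2 fold change was -1.11 (standard error 0.58, 95% confidence interval -2.39 to 0.18, limma, unadjusted p = 0.0842 and adjusted p = 1.0), the widest interval of the 8. Without Del#3 replicate 2, which holds the 3 reads, it was -0.54, so the size depended on a library at the limit of the depth.

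On the HoxA side, *Skap2* (chr6:51809165-51962548, minus strand, 300.1 kb from the deletion) lies beyond the cluster and encodes a cytoplasmic adaptor protein of Src kinase signalling. It was at 134.0, 178.1 and 169.0 normalized counts in EVX1-Δfs and at 137.9, 130.1 and 133.5 in Del#3. The Del#3 libraries were close together, and EVX1-Δfs replicate 1 lay among them. Its log2 fold change was -0.25 (standard error 0.27, 95% confidence interval -0.85 to 0.35, limma, adjusted p = 1.0).

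*Snx10* (chr6:51473900-51540678, plus strand, 722.0 kb away), a sorting nexin of endosomes, was at 426.3, 247.3 and 345.0 normalized counts in EVX1-Δfs and at 367.4, 245.0 and 430.4 in Del#3. Replicate 2 was lowest in both lines, and 88.9% of its sum of squares lay between replicate numbers. By limma, its log2 fold change was 0.03 (standard error 0.31, 95% confidence interval -0.65 to 0.71, adjusted p = 1.0).

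*Cbx3* (chr6:51420359-51433703, plus strand) and *Hnrnpa2b1* (chr6:51410433-51419893, minus strand) are divergent neighbours whose annotated starts are 466 bases apart, 829.0 and 842.8 kb from the deletion. *Cbx3* encodes the heterochromatin protein HP1γ, which binds methylated histone H3, and *Hnrnpa2b1* an abundant RNA-binding protein of pre-mRNA processing. *Cbx3* was at 1092, 430.1 and 627.4 normalized counts in EVX1-Δfs and at 1256, 517.9 and 702.7 in Del#3. The replicates fell in the same order in both lines, and 96.2% of its sum of squares lay between replicate numbers. Within replicates it was higher in Del#3 by 0.20, 0.27 and 0.16 on the log2 scale. The log2 fold change was 0.21 (standard error 0.40, 95% confidence interval -0.67 to 1.09, limma, adjusted p = 1.0). RefSeq lists pseudogene copies of *Cbx3*, and how reads that also match them were counted was not tested, so its level is uncertain.

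*Hnrnpa2b1*, the most highly expressed of the 10 genes, was at 9634, 7571 and 7169 normalized counts in EVX1-Δfs and at 8246, 6493 and 9580 in Del#3. It was lower in Del#3 in replicates 1 and 2 and higher in replicate 3, with no separation of the lines. Its log2 fold change was -0.01 (standard error 0.24, 95% confidence interval -0.55 to 0.53, limma, adjusted p = 1.0), and its sign depended on the scaling and method. Replicate 2 was lowest in both lines for *Cbx3*, but *Hnrnpa2b1* did not follow the replicate order of its divergent neighbour.

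*Nfe2l3* (chr6:51382669-51408767, plus strand, 853.9 kb away), which encodes a transcription factor of the NRF family, was the farthest and among the least expressed. It was at 19.14, 31.64 and 15.36 normalized counts in EVX1-Δfs and at 18.33, 22.06 and 12.82 in Del#3. Replicate 2 was highest and replicate 3 lowest in both lines, and Del#3 was lower in each replicate with log2 differences of -0.06, -0.50 and -0.24. Its log2 fold change was -0.27 (standard error 0.46, 95% confidence interval -1.28 to 0.74, limma, adjusted p = 1.0).

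Among the flanking genes, *Tax1bp1* and *Cbx3* were thus higher in all 3 pairs and *Nfe2l3* lower in all 3. Over all genes tested, 12.1% were higher and 11% lower in every pair. The replicate number held 82.8% to 96.2% of the sum of squares for *Hibadh*, *Snx10*, *Cbx3* and *Nfe2l3*, and under 50% for *Tax1bp1*, *Jazf1*, *Skap2* and *Hnrnpa2b1*, beside a median of 64.4% per gene. For *Jazf1* and *Skap2* the line held more than the replicate number, 43.4% and 48.8%, with no call for either.

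**Figure D4:**
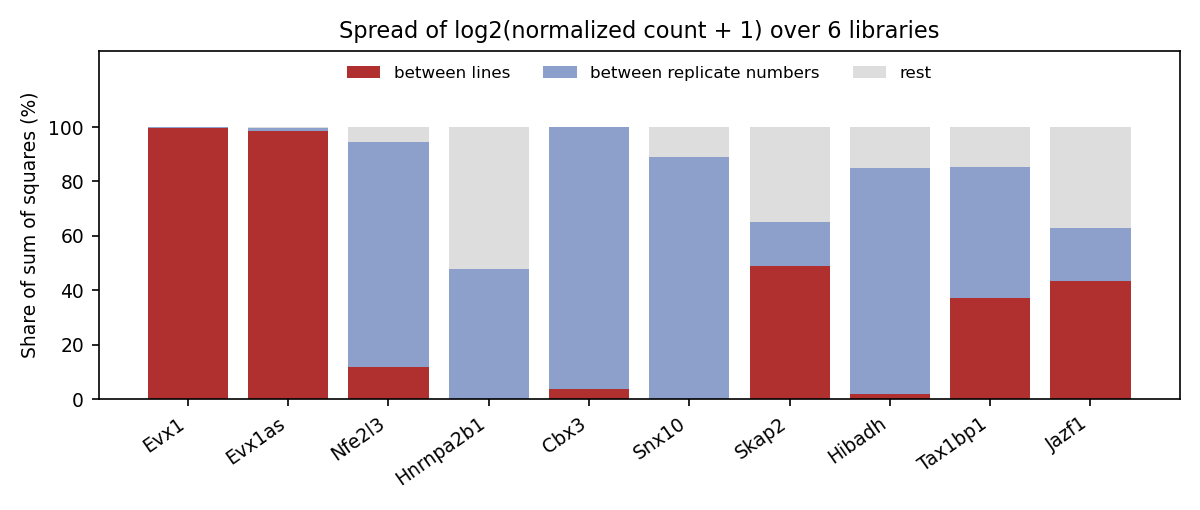
How the sum of squares of log2(normalized count + 1) over the 6 libraries is divided (% on the y axis), by what lies between the lines, between replicate numbers and in the rest, for each gene. The bars of *Evx1* and *Evx1as* are almost wholly between lines (99.8% and 98.7%), while the line holds at most 48.8% for any flanking gene.

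The window was then widened around the *Evx1* start. Of 44 annotated genes that start within 1 Mb, 17 were listed, and these were the 10 genes above and 7 of the HoxA cluster. The 13 that could be tested included *Evx1* and *Evx1as* as the only 2 called. The other 11 had a median log2 fold change of 0.03 and a median absolute value of 0.27. The 95% confidence interval lay within 2-fold for 4 of these 11 (36.4%), beside 61.1% of all genes tested. Within 5 Mb, 62 of the 80 listed genes were tested. The other 60 were called in neither direction, with 30 lower and 30 higher, a median of 0.00 and a median absolute value of 0.15 beside 0.16 over all genes. The interval lay within 2-fold for 60.0% of these 60, beside 61.1% of all genes. In all 3 pairs, 11 of the 60 were higher and 9 lower, beside 12.1% and 11% of all genes.

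**Figure D5:**
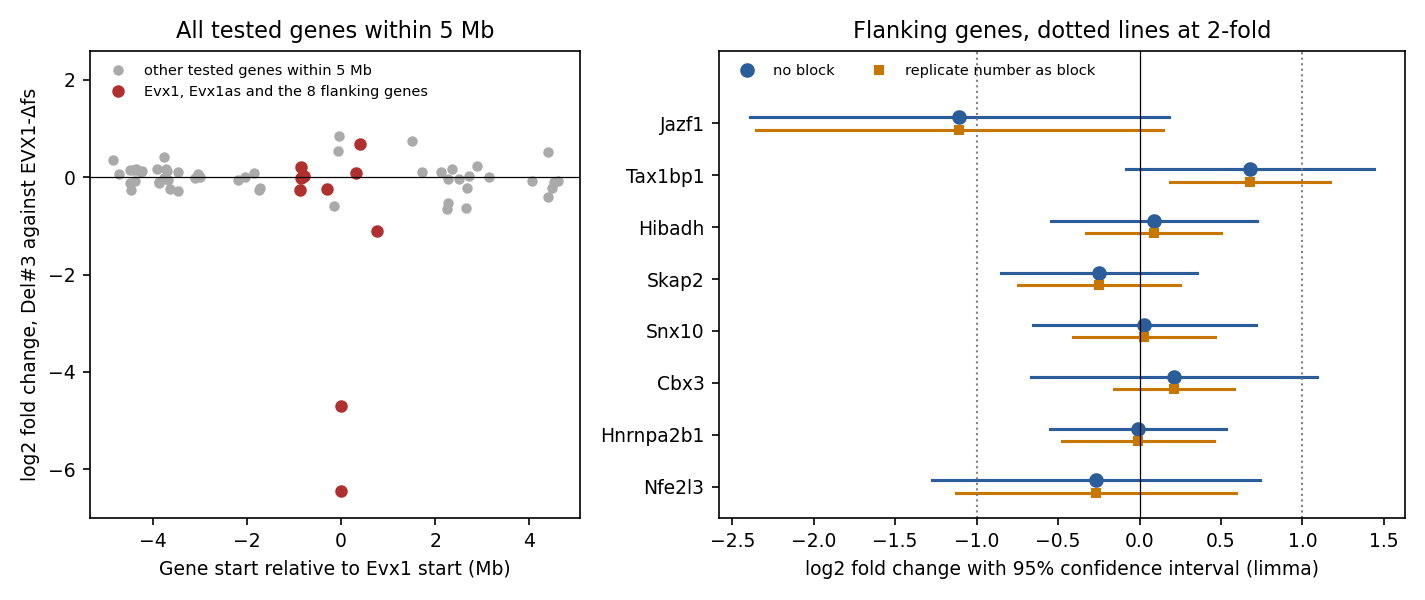
Left, log2 fold change of each tested gene within 5 Mb against the position of its start relative to that of *Evx1* (Mb), and right, the log2 fold change of the 8 flanking genes with its 95% confidence interval by limma without (circles) and with (squares) the replicate number as a block. *Evx1* and *Evx1as* at -6.45 and -4.70 lie far below all others, whose values run from -1.11 to 0.84, and only the blocked interval of *Tax1bp1* leaves out 0.

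The genes next to *Evx1* on the HoxA side belong to the HoxA cluster, whose homeodomain factors pattern the body axis. They had few reads in D4 EBs, and 3 of the 7 listed passed the filter. None of the 3 was called by limma, edgeR or DESeq2, and no unadjusted p-value was under 0.05. The log2 fold change was 0.54 for *Hoxa11* (95% confidence interval -0.93 to 2.00) and 0.84 for *Hoxa13* (-0.64 to 2.32). Both intervals extended beyond 2-fold, so that a 2-fold change of these genes lies within them. Both values rested on single libraries, with no call in any case. Leaving out each library gave 0.23 (without Del#3 replicate 3) to 1.32 (without Del#3 replicate 2) for *Hoxa13*, and 0.35 without EVX1-Δfs replicate 1. For *Hoxa11* it gave -0.10 (without EVX1-Δfs replicate 2) to 0.93 (without Del#3 replicate 2), and 0.22 without Del#3 replicate 3. *Hoxa13*, the listed gene next to *Evx1* on this side and the cluster gene with the highest mean level, had 6, 10 and 12 reads in EVX1-Δfs and 17, 7 and 38 in Del#3, and the libraries overlapped.

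No other tested gene came near the loss of *Evx1*. Among genes whose Del#3 libraries all lay below the EVX1-Δfs libraries, those with the next lowest log2 fold change were *Gstm6* (-1.50, standard error 0.46), *Grap* (-1.28, standard error 0.53) and *Matn2* (-1.25, standard error 0.42). None of the 3 passed the test by limma (adjusted p = 1.0 for each), and the log2 fold change of *Evx1as* was over 3 units lower than any of theirs.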

How the data were processed

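The mRNA of D4 EBs from 3 replicates per line was sequenced on an Ion Proton. The authors used TopHat2 followed by TMAP for mapping to mm9, HTSeq for counting on genes and DESeq2 for testing. The deposited signal values are counts divided by the size factor of each library, and 100% of them were whole reads within 0.01 reads once multiplied back. Lines were compared with limma 3.58.1 in R 4.3.3 (trend) on log2(normalized count + 1) for genes passing filterByExpr of edgeR 4.0.16 (minimum count 10), with Benjamini-Hochberg adjustment over all of them, a threshold of 0.05 and no covariate. The paper sets each replicate on its own day, and replicate numbers were taken to pair libraries, which the labels do not state. Same-numbered libraries deviated from their line means with correlations of 0.74, 0.32 and -0.05 across genes for replicates 1 to 3. For replicate 3 the values thus show no pairing, and results by pair or with the block rest on this assumption. Replicates may share one culture of the line, so p-values measure the spread between these samples. The script was tested on simulated data.

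Alternatives were edgeR's quasi-likelihood test and DESeq2 1.42.0 on the recovered reads, pseudocounts of 0.1 and 5, no filter, TMM or scaling to total reads, the replicate block, and leaving out each library. The genes and lists were chosen with earlier results of these data known. Named were the 10 genes, the called or highest HoxA gene and called genes within 1 Mb, neighbours of *Evx1*, and the 3 genes most like *Evx1* in pattern. Other genes named were chosen after their values were seen. Of the listed symbols, 94.3% matched the GENCODE annotation of NCBIM37, from which positions and exons were taken. Motif shares come from RefSeq (GRCm38.p6). Values of 1 gene of the HoxA list are not reported here.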

Additional observations from a re-analysis of the deposited data

How the results depend on the processing

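*Evx1* and *Evx1as* were called in all 19 alternatives, with log2 fold changes of -6.63 to -6.28 and -4.90 to -4.45. The replicate block (paired analysis) with all libraries changed no call among the 10 genes, and for *Tax1bp1* its adjusted p was 0.852 in limma, 0.810 in edgeR and 0.553 in DESeq2. Genes called numbered 2 in limma and edgeR and 3 in DESeq2 without the block, and 3 in limma and edgeR and 9 in DESeq2 with the replicate block. In the block in limma without both replicate 3 libraries, added after the data were seen, 307 genes were called, and flanking genes called rose from 0 to 1, *Tax1bp1* (0.95, adjusted p = 0.0227). The cause was not tested. Leaving out each library gave 1.03% to 1.21% of *Evx1* remaining, the highest without EVX1-Δfs replicate 2.

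Among flanking genes near 0 the sign changed, with no call. *Hnrnpa2b1* was at 0.0183 with edgeR, 0.0063 with TMM scaling, 0.0241 with scaling to total reads, 0.0103 with the block in edgeR, and 0.098 and 0.097 in the limma block without both replicate 1 or both replicate 2 libraries. In that block, *Hibadh* was at -0.0607 without both replicate 2 and *Snx10* at -0.11 without both replicate 3 libraries. Leaving out each library gave ranges of -0.11 to 0.29 for *Hibadh* (below 0 without EVX1-Δfs replicate 1 or Del#3 replicate 2), -0.18 to 0.26 for *Snx10* (below 0 without EVX1-Δfs replicate 2 or Del#3 replicate 1 or 3), -0.14 to 0.57 for *Cbx3* (below 0 without EVX1-Δfs replicate 2 or Del#3 replicate 1), -0.14 to 0.14 for *Hnrnpa2b1* (above 0 without EVX1-Δfs replicate 1 or Del#3 replicate 2) and -0.48 to 0.0142 for *Nfe2l3* (above 0 without EVX1-Δfs replicate 2). No scaling moved the median of all genes by over 0.1. Depth limits *Jazf1*, *Nfe2l3* and the HoxA genes.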

Other observations

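Of the 4 HoxA genes left out by the filter for low counts, *Hoxa7* was the one whose libraries did not overlap between the lines, and it was singled out after its values were seen. Of the genes that passed the filter, 1.71% had all Del#3 libraries above all EVX1-Δfs libraries. It had 3, 0 and 6 reads in EVX1-Δfs and 11, 9 and 9 in Del#3, that is 9 against 29 reads in all. In the fit without a filter its log2 fold change was 1.87 (standard error 0.75, limma, adjusted p = 1.0). With a library of 0 reads the value can depend on the pseudocount, and no other pseudocount was tried for this gene. *Hoxa9*, *Hoxa10* and *Hoxa11as* had 16 against 27, 13 against 18 and 17 against 25 reads in all, and their libraries overlapped. In the same fit their log2 fold changes were 0.40, -0.28 and 1.12 (limma, adjusted p = 1.0 for each), and *Hoxa10* had 0 reads in Del#3 replicate 2.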
